A study of Mus musculus with 4 samples.

Results

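The genes described are 9 complement genes that cells of the skin can transcribe locally: the C1 proteases C1s1 and C1ra, the C4 gene C4b, the proteases C2 and Cfb, the central component C3, and the regulators Serping1, Cd55 and Cd59a. They were chosen by symbol, as every row of the deposited table whose gene name is one of these, and all 9 were found among 17849 named genes, in 16 of 69391 entries. Each entry is a cluster of neighbouring positions at which tags from cap analysis of gene expression (CAGE) begin. In CAGE each tag is read from the cap of 1 RNA molecule, whatever the length of the transcript, and a cluster is taken here to mark a promoter in use. Levels are CPM, the tags of a gene scaled to a common library size, and can therefore be set side by side between genes.

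The samples were 4 libraries from inflamed facial skin of FADS mice, C57BL/6 animals of the genotype Nectin-cre(+);Ikk2FL/FL;Postn-/- at postnatal day 28, which is 4 weeks of age. FADS is a mouse model of facial atopic dermatitis in which the kinase Ikk2, encoded by Ikbkb, is deleted where the Cre recombinase is active, and every animal here also lacked Postn, the gene for the matrix protein periostin. The labels do not say in which cells this Cre acts. All 4 libraries form 1 group, with no unaffected skin and no animals with periostin among them, so that no value below is an effect of disease or of genotype. The sample codes end in 1L, 1R, 2L and 2R for libraries 1 to 4, and the labels give neither their meaning nor whether the skins came from separate animals. P-values therefore cover the spread among these 4 libraries alone, and that spread may be technical.

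Complement is a cascade of plasma and membrane proteins that coats microbes and damaged cells. In the classical pathway the recognition protein C1q carries the proteases C1r and C1s, which cleave C4 and C2 into a C3-cleaving enzyme, while the alternative pathway builds its own C3-cleaving enzyme from C3 and factor B with the help of factor D. C1 inhibitor, encoded by Serping1, blocks C1r and C1s; CD55 takes both C3-cleaving enzymes apart; and CD59 stops assembly of the membrane pore. The liver supplies most of the plasma proteins, and fibroblasts, keratinocytes, endothelial cells and macrophages make several of them in tissues.

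Summed over all entries, the library totals were 17630119 to 18823630 tags, and 1 tag was worth 0.0531 to 0.0567 CPM. A cluster listed under more than 1 gene is counted more than once in these totals. With each cluster counted once, they were 17026618, 17691558, 16492915 and 16787072 tags in libraries 1 to 4. Postn, the targeted gene, had 15, 6, 10 and 7 tags in libraries 1 to 4, a mean of 0.525 ± 0.225 CPM (SD, n = 4), and Ikbkb had 36.2 ± 2.06 CPM. Tags are read from caps, so they check a deletion only where it takes in the promoter. The skin markers were present: 10 of 10 fibroblast, 7 of 7 basal keratinocyte, 6 of 6 suprabasal keratinocyte and 7 of 7 endothelial markers averaged at least 1 CPM. Of 8 hepatocyte markers Ttr alone was analysed here, at 0.540 ± 0.646 CPM. Libraries 2 and 4 stood apart in the summed level of 5 genes of secretory glands. It was 9.13 and 0.113 CPM in libraries 1 and 3 but 40700 and 8714 CPM in libraries 2 and 4. Of these genes, Bpifa2 and Smr3a were high in library 2 alone: library 4 had 4.46 and 0.557 CPM, and library 1 had 4.18 and 0.825 CPM.

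Summed over its clusters, Serping1 was the most abundant of the 9 genes, and C3 was the least abundant. Serping1 measured 49.2, 41.3, 73.8 and 65.8 CPM in libraries 1 to 4, a mean of 57.5 ± 14.9 CPM (SD, n = 4), which is rank 3514 of 17037 genes. It alone gave 45.9 ± 1.80% of the tags of all 9 genes, whose sum was 125 ± 27.6 CPM. Most of these tags began downstream of the annotated coding starts: counted at the cluster that holds a coding start alone, Serping1 averaged 11.2 CPM and lay below C1s1 in 4 of 4 libraries. The other 8 genes lay between 1.62 and 16.5 CPM on average.

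**Figure D1:**
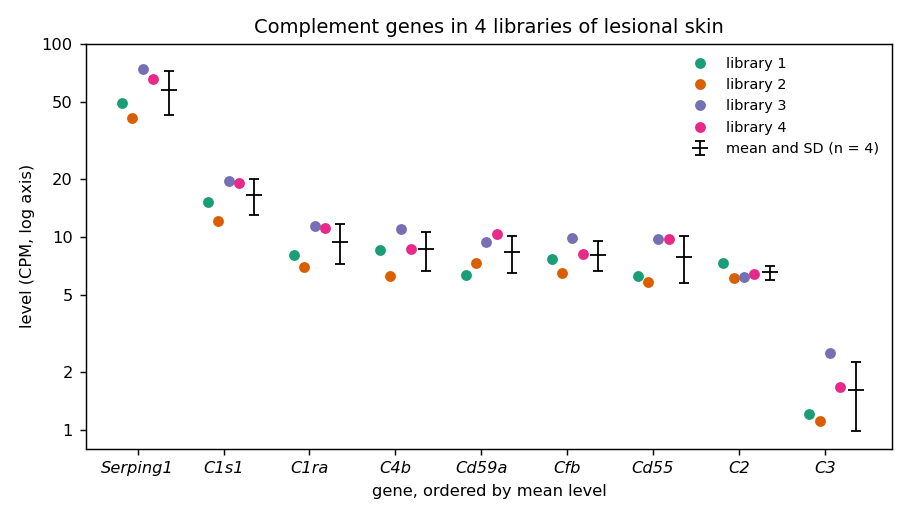
Level of each gene in CPM (log axis) in the 4 libraries, 1 coloured point per library, with the mean and SD (n = 4) in black. Serping1 lies above every other gene in all 4 libraries, C3 lies below every other gene, and the 6 genes from C1ra to C2 overlap.

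Among the proteases that start the classical pathway, C1s1 encodes C1s, which cleaves C4 and C2, and C1ra encodes C1r, which activates C1s. C1s1 had 15.2, 12.2, 19.6 and 19.1 CPM (mean 16.5 ± 3.49, n = 4). C1ra had 8.09, 7.01, 11.4 and 11.2 CPM (mean 9.43 ± 2.21, n = 4). Both genes were lower in libraries 1 and 2 than in libraries 3 and 4, without overlap, as were 45.6% of the 14732 genes tested in CPM. C1s1 and C1ra kept almost the same proportion. The ratio of C1ra to C1s1 was 0.570, or -0.81 ± 0.06 on the log2 scale (SD, n = 4), and lay below 1 in 4 of 4 libraries (exact two-sided sign-flip test, p = 0.13, the smallest p that 4 libraries can give).

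C1 inhibitor was set against its target proteases in the same way. Serping1 exceeded C1s1 by 1.79 ± 0.09 (a ratio of 3.46) and C1ra by 2.60 ± 0.07 (a ratio of 6.06) on the log2 scale, each in 4 of 4 libraries (exact sign-flip test, p = 0.13 for each). With Serping1 counted at the cluster with a coding start alone, the log2 ratio to C1s1 turned to -0.56 ± 0.05, and that to C1ra was 0.25 ± 0.07. Against the sum of C1s1 and C1ra, the ratio of Serping1 was 2.12, 2.15, 2.38 and 2.18 in libraries 1 to 4. The ratio thus moved far less between libraries than the level of Serping1 itself, which in unscaled CPM was 1.79 times as high in library 3 as in library 2. A ratio within a library cancels shifts shared by its genes, and a level does not. How steady such ratios are for other pairs of genes of like level was not tested. These are ratios of capped RNA ends and carry no information on protein.

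C4b encodes C4 and C2 the protease that joins the C4 fragment in the classical C3-cleaving enzyme. C4b had 8.53, 6.27, 11.0 and 8.70 CPM (mean 8.62 ± 1.93, n = 4), with library 2 lowest and library 3 highest. C2 had 7.37, 6.16, 6.24 and 6.47 CPM (mean 6.56 ± 0.556, n = 4) and was the only one of the 9 genes that was highest in library 1. Of its tags, 64.1% lie in a cluster also listed under the predicted gene Gm20547, without which C2 averaged 2.35 CPM. A further 29.0% lie outside the annotated gene. The levels and ratios of C2 are uncertain to that extent. The log2 ratio of C4b to C2 was 0.37 ± 0.34, positive in 4 of 4 libraries but as small as 0.02 in library 2 (exact sign-flip test, p = 0.13). When C2 was counted from its most used promoter alone, which is the cluster shared with Gm20547, the log2 ratio of C4b to C2 was 1.01.

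C3 is the component on which all pathways meet, and Cfb encodes factor B, the alternative-pathway counterpart of C2. C3 had 22, 21, 44 and 30 tags in libraries 1 to 4, which is 1.21, 1.12, 2.50 and 1.67 CPM (mean 1.62 ± 0.630, n = 4). At this depth the 95% Poisson interval was 1.81 to 3.35 CPM in library 3. The interval of library 1, 0.758 to 1.83 CPM, overlapped it. That of library 2, the lowest, was 0.691 to 1.705 CPM and did not. These intervals are of unscaled CPM and cover counting error only, and libraries 2 and 3 are the extremes of the 4. In the limma test of spread between libraries, given below, the unadjusted p of C3 was 0.324. Cfb had 7.70, 6.53, 9.93 and 8.14 CPM (mean 8.08 ± 1.41, n = 4), again lowest in library 2 and highest in library 3. C3 was lower than Cfb by a log2 ratio of -2.35 ± 0.29 and lower than C4b by -2.43 ± 0.27, each in 4 of 4 libraries (exact sign-flip test, p = 0.13 for each). C2 was below Cfb in 4 of 4 libraries too, by a log2 ratio of -0.29 ± 0.28 with a range from -0.67 to -0.06 (exact sign-flip test, p = 0.13). From the most used promoter of each gene alone, which for C2 is the cluster also listed under Gm20547, the log2 ratio of C2 to Cfb was -0.93.

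The membrane regulators had like levels. Cd55 measured 6.27, 5.84, 9.76 and 9.81 CPM (mean 7.92 ± 2.16, n = 4), with libraries 3 and 4 above libraries 1 and 2. Cd59a measured 6.33, 7.33, 9.42 and 10.3 CPM (mean 8.35 ± 1.84, n = 4), likewise with no overlap between these pairs of libraries. In CPM 45.6% of all tested genes had this split. The log2 ratio of Cd55 to Cd59a was -0.09 ± 0.17, below 0 in 3 of 4 libraries (exact sign-flip test, p = 0.375).

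In the order of mean levels, Serping1 stood above C1s1, C1s1 above C1ra, and C2 above C3, in 4 of 4 libraries each. From C1ra through C4b, Cd59a, Cfb and Cd55 to C2, no 2 neighbours kept 1 direction in all libraries: their log2 ratios were 0.13 ± 0.19, 0.05 ± 0.34, 0.04 ± 0.27, 0.05 ± 0.24 and 0.23 ± 0.45 (exact sign-flip tests, p from 0.375 to 1). Among the 15 distinct pairs examined, the smallest possible p was 0.13, so that none could pass 0.05.

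Some of these genes have close copies in the mouse genome. C1rb, the copy of C1ra, had 2, 3, 4 and 0 tags, a mean of 0.124 ± 0.0956 CPM, which is below the limit of detection of 3 tags (0.159 to 0.170 CPM). Summed over the libraries, C1ra had 681 tags and C1rb 9, a ratio of 75.7 with an exact 95% interval of 39.6 to 166 that covers counting error only. Cd59b, the copy of Cd59a, had 21, 19, 20 and 26 tags (1.19 ± 0.186 CPM, n = 4), and over all libraries Cd59a had 7.02 times its tags (exact 95% interval 5.60 to 8.91, counting error only). C4a, C1s2 and Cd55b were looked up too, and no cluster was listed under these names. The table does not show how tags that match both copies were treated, and the levels of C1ra, C4b, C1s1, Cd55 and Cd59a are uncertain to that extent.

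Over the 4 libraries, most of these genes were lower in libraries 1 and 2 and higher in libraries 3 and 4. In CPM this held without exception among the 4 values for 8 of 9 genes, all but C2, where it held for 45.6% of the 14732 genes tested; after TMM scaling (trimmed mean of M-values, which removes shifts shared by most genes) it held for 6 of 9 genes against 26.3% of all. Library 3 was highest for 6 of 9 genes in CPM (35.3% of all genes) and for 6 of 9 after scaling (27%). Library 2 was lowest for 8 of 9 genes in CPM (50.6% of all genes) and for 7 of 9 after scaling (22.3%). Library 2 has the smallest scaling factor, 0.931, against 1.04 in library 3, so the CPM of most genes are lower there. The pairing of libraries 1 and 2 against 3 and 4 was described after the values had been seen. It coincides with the number in the sample codes (1L and 1R, 2L and 2R), whose meaning the labels do not give; if samples with the same number share a source, the 4 libraries are not independent.

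On log2(CPM + 1) after TMM scaling, the median deviation of the 9 genes from their own means was -0.16, -0.26, 0.23 and 0.16 in libraries 1 to 4. The median difference between a gene's highest and lowest library was 0.51 for the 9 genes and 0.28 for all tested genes. Among the 9 it was widest for Serping1, 0.67, followed by C3, 0.63, and narrowest for C2, 0.27.

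Whether a gene varied more than genes of its level usually do was tested with limma. None of the 9 genes passed an adjusted p of 0.05, where 0.38% of all tested genes did; by an unadjusted p under 0.05, 1 of 9 passed, against 6.27% of all genes. That gene was Serping1 (limma, adjusted p = 0.722). None of the 9 was called by edgeR on recovered tags (0.224% of all genes), where Serping1 alone had an unadjusted p under 0.05, and none was a dispersion outlier in DESeq2 (1.83% of all genes). The adjusted p of the other 8 genes was 0.993 in limma.

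**Figure D2:**
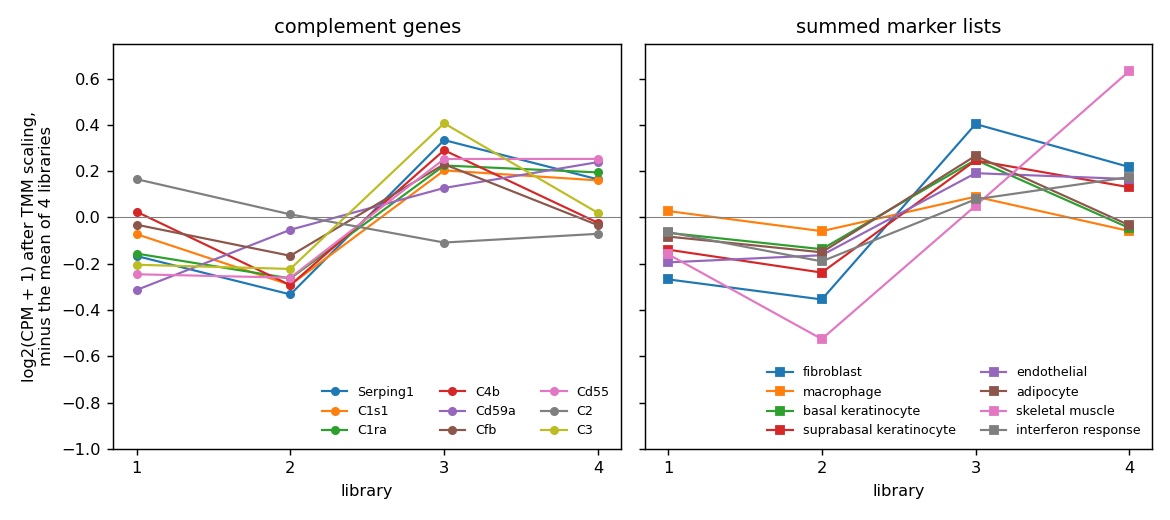
Deviation of log2(CPM + 1) after TMM scaling from the mean of the 4 libraries, for the 9 complement genes (left) and for the summed level of 8 lists of cell type or interferon response markers (right), 1 line per gene or list. C2 is the only complement gene above its mean in both libraries 1 and 2, and the fibroblast list runs from -0.35 in library 2 to 0.40 in library 3.

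The marker lists of several skin cell types had profiles of the same shape. The summed level of the 10 fibroblast markers was 3839, 3409, 6440 and 5688 CPM in libraries 1 to 4. Col1a1 and Col3a1, at 2102 and 2010 CPM on average, made up most of this sum, whose mean was 4844 CPM. In CPM, 8 of 10 fibroblast markers were highest in library 3, as were 35.3% of all tested genes. The same held for 7 of 7 basal keratinocyte, 5 of 6 suprabasal keratinocyte and 6 of 6 sebaceous markers. Of macrophage and endothelial markers it held for 8 of 11 and 5 of 7. For skeletal muscle and the interferon response it held for 0 of 6 and 2 of 9. On the scaled log2 axis the fibroblast list deviated by -0.27, -0.35, 0.40 and 0.22, and the summed 9 complement genes by -0.13, -0.28, 0.27 and 0.14. The 7 endothelial markers summed to 82.3, 79.4, 114 and 112 CPM. The macrophage list, at 189, 168, 208 and 189 CPM, had a range of 0.15 on the scaled log2 axis, against 0.76 for fibroblasts, 0.49 for suprabasal keratinocytes, 0.39 for basal keratinocytes and 0.36 for the 9 genes of the interferon response. The ranges of skeletal muscle (1.16), lymphocyte (0.996), sebaceous (0.98) and neutrophil (0.85) markers were wider than that of fibroblasts. The lymphocyte list, of which 2 of 5 genes were analysed, was also lower in libraries 1 and 2 (-0.35 and -0.52) than in libraries 3 and 4 (0.40 and 0.47). Of the neutrophil list, 4 of 7 genes were analysed. Its sum, 461 CPM on average, came mostly from S100a8 and S100a9 (273 and 184 CPM), while Csf3r and Cxcr2 averaged 1.66 and 2.29 CPM. The part of these cell types in the levels of the complement genes was not tested, and in whole tissue fewer cells of a type and less RNA per cell cannot be told apart. The summed gland genes followed another order, with libraries 2 and 4 high.

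Genes whose profile over the 4 libraries was nearest to those of the 3 most variable members were looked up by the root mean square difference of scaled, centred log2 values, among 12070 genes of at least 5 CPM. For Serping1 they were Scin, Cldn5 and Il20ra, each at 0.02. For C3 they were H2-Q7, Adam8 and Thy1, each at 0.02. For C4b they were Arl4d at 0.01 and Cd276 and Mb21d2, each at 0.02. With 4 points a close match is common: 42, 34 and 18 genes lay within 0.05 of Serping1, C3 and C4b.

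The promoters of these genes fell into 3 kinds: a single cluster at the annotated start, a single cluster downstream of it, and several clusters. A single cluster held all tags of 5 genes, and of 16 member clusters 13 held at least 1% of their gene's tags. Positions are those of the deposited table, on GRCm38 (a start may be off by 1 bp), and are set against GENCODE M21 transcripts. The widths of the main clusters, end minus start, ran from 70 to 200 bp with a median of 102 bp, against 129 bp over all genes.

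**Figure D3:**
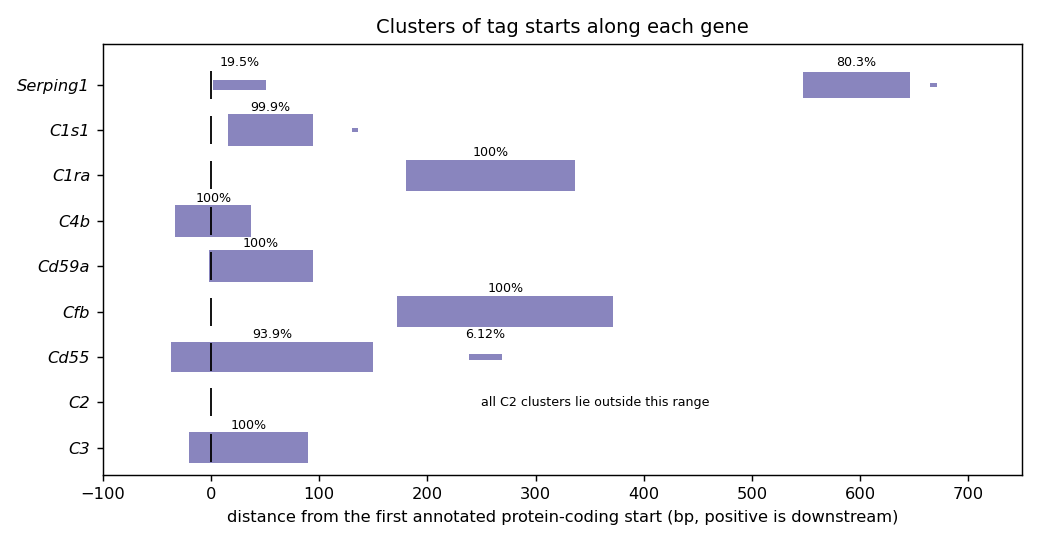
Clusters of tag starts along each gene, by distance in bp from the first annotated protein-coding start (vertical mark), with bar height growing with the share of the gene's tags and shares of at least 1% printed above. Most Serping1 tags begin 547 bp or more downstream of the mark, C1ra and Cfb tags begin 180 and 172 bp downstream or further, and the C2 clusters lie outside the range drawn.

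C4b, C3 and Cd59a were of the first kind. All C4b tags began at chr17:34743845-34743915 on the minus strand, which holds the single annotated coding start of C4b. All Cd59a tags began at chr2:104095799-104095895 on the plus strand, across both annotated coding starts. All C3 tags began at chr17:57228046-57228156 on the minus strand, around the first coding start at 57228136. C1s1 belongs with them: 1191 of its 1192 tags began at chr6:124542265-124542343 on the minus strand, over 3 of its 4 annotated coding starts.

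Promoter sequences of 5 of the 9 genes (C3, C1s1, C1ra, Cd55 and Cd59a) were found in RefSeq's table for GRCm38.p6, each from 250 bases before to 50 after the RefSeq start, and those of C4b, C2, Cfb and Serping1 were not found there. C3 and C1s1 are shown because both carry TTGCNNNA, a C/EBP half-site; C/EBP factors are known to act in liver and acute-phase genes. Capitals mark this motif on either strand and, in C3, TATAA. Each stretch runs from 130 bases before to 20 after the RefSeq start, at chr17:57228117-57228266 for C3 and chr6:124542302-124542451 for C1s1, both on the minus strand.
C3: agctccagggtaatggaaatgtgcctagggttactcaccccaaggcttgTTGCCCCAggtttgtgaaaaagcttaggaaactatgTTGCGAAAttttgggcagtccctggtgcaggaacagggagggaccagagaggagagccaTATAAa
C1s1: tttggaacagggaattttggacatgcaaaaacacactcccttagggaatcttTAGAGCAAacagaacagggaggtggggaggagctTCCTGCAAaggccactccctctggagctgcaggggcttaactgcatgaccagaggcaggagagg
In C3 the TATAA lies at 15 to 19 bases after the RefSeq start and so within the cluster of tags, which runs from 20 bases before to 90 after that start. TTGCNNNA begins 81 and 45 bases before the start in C3 and 78 and 44 before it in C1s1. Among all 32851 promoters of the table, 33.4% hold TTGCNNNA, as do 3 of the 5 found (C1ra is the third), and 24.9% hold TATAA, as does 1 of 5. Of the other motifs, searched on both strands, CCAAT matched none of the 5 (37.4% of all promoters hold it). The AP-1 motif TGANTCA and the NF-kB consensus also matched none (7.81% and 8.46% of all). TTCNNNGAA (STAT) matched C1ra alone, 33 bases after its start (8.3% of all), and the core of the interferon response element matched Cd59a alone, 187 bases before its start (3.44% of all). A match of letters is not evidence of binding, and its absence concerns these windows alone.

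Cd55 used a broader start. Its main cluster, chr1:130462594-130462781 on the minus strand, was 187 bp wide, held the annotated coding start at 130462744 and took 90.4%, 97.3%, 96.5% and 91.5% of its tags (mean 93.9 ± 3.50%, n = 4). A second cluster at chr1:130462475-130462506, in an intron of the annotation and 24 bp upstream of the start of the non-coding transcript Cd55-203, had 11, 3, 6 and 15 tags. These are too few for the test of shares, which required an average of 10 tags per library in and outside the main cluster. The Cd55 promoter is shown because it was the only one of the 5 with GGGCGG, the Sp1 box found in many promoters without a TATA box; capitals mark its matches, which read CCGCCC on this strand, at 77 and 7 bases before the RefSeq start (chr1:130462725-130462874, minus strand).
Cd55: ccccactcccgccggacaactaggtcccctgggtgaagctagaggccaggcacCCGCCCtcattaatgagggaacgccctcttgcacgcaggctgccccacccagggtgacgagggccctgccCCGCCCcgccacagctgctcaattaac
Of all promoters 35.7% hold GGGCGG. Cd55 also had the highest GC content of the 5 promoters over the 300 bases, 63.3% against 45.7% in Cd59a, 47% in C1ra, 52% in C1s1 and 53.3% in C3.

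The second kind, a single cluster downstream of the annotated start, comprised C1ra and Cfb. All C1ra tags began at chr6:124512585-124512741 on the plus strand, 180 bp or more downstream of the coding start that GENCODE gives at 124512405 and 58 bp upstream of the start codon at 124512799. RefSeq places the start at 124512621, inside the cluster. All Cfb tags began at chr17:34862146-34862346 on the minus strand, 172 bp or more downstream of the first of its 7 coding starts, at 34862518. The cluster holds the start of another coding transcript, Cfb-206, at 34862173, and ends 34 to 40 bp before the annotated start codons.

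The upstream edge of the C1ra cluster is nearly the same in sequence in C1rb. The stretches below are the best local match between the C1ra sequence up to 20 bases past its RefSeq start and the C1rb promoter window, both on the plus strand, with capitals for the bases that differ; the last capital A of C1rb has no counterpart in C1ra.
C1ra: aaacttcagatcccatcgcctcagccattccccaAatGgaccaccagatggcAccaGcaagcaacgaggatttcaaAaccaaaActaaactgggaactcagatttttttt
C1rb: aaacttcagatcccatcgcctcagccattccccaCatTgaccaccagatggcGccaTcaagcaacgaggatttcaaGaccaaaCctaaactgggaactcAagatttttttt
They lie at chr6:124512522-124512631 and chr6:124570180-124570290 and are identical in 104 of 111 columns (93.7%). The C1ra cluster begins within its stretch, while the few tags of C1rb began downstream of the stretch shown, at chr6:124570398-124570424.

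Serping1 and C2, with Cd55, made up the third kind. The main Serping1 cluster, chr2:84774798-84774897 on the minus strand, had 708, 628, 1055 and 945 tags and took 79.1%, 80.8%, 81.1% and 80.0% of the gene's tags in libraries 1 to 4 (mean 80.3 ± 0.894%, n = 4). Its exact (Clopper-Pearson) 95% interval was 76.3 to 81.7% in library 1 and 78.9 to 83.2% in library 3, and these intervals overlapped. This cluster lay 547 bp downstream of the first coding start at 84775444 and ended 8 bp before the start codon at 84774790. It overlaps the beginning of the annotated second exon, 84774740 to 84774814, and lies within an exon of the processed transcript Serping1-203, whose start at 84775128 is 231 bp upstream; no annotated coding start is inside it. Whether the main cluster marks a promoter was not tested. The second cluster, at chr2:84775393-84775442, holds the coding start at 84775404 and took 19.6 ± 0.858% of the tags. The clusters are 496 bp apart, and the main one had 3.83, 4.24, 4.32 and 4.04 times the tags of the other. Counted at the second cluster alone, Serping1 had 10.2, 7.86, 13.8 and 13.0 CPM.

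**Figure D4:**
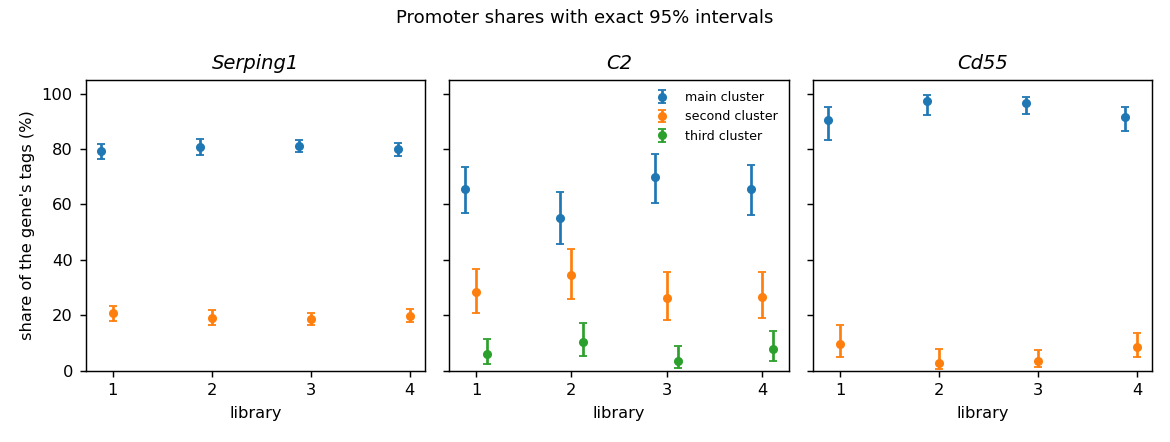
Share of each gene's tags, in percent, in its clusters of at least 1% for Serping1, C2 and Cd55 in the 4 libraries, with exact 95% Clopper-Pearson intervals that cover counting error only. The Serping1 shares lie between 79.1 and 81.1% in all libraries, while the C2 shares range from 55.2 to 70.0% with wide intervals.

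C2 tags began in 3 clusters, of which the main one lay far from the others. Its main cluster, chr17:34882002-34882104 on the minus strand, had 88, 64, 77 and 76 tags and took 65.7%, 55.2%, 70.0% and 65.5% of the tags (mean 64.1 ± 6.30%, n = 4). It holds the coding starts 34882026 and 34882100 of C2, but the table lists it under Gm20547 as well, a predicted gene with a start at 34882042, and these tags cannot be told apart by their position. The second cluster, chr17:34898392-34898545, had 38, 40, 29 and 31 tags (29.0 ± 3.77%) and lies 16288 bp upstream of the main one. It is outside the annotated gene, 127 bp upstream of the start of the non-coding transcript C2-207, and shares 81 bases with the main cluster of the histone methyltransferase gene Ehmt2 on the opposite strand, which had 18.3 ± 3.27 CPM. The third, chr17:34898198-34898253, lies 12 bp downstream of the C2-207 start and had 8, 12, 4 and 9 tags (6.93 ± 2.84%). No cluster was found at the first coding start of C2, 34895547. Without the cluster that is also listed under Gm20547, the level of C2 was 2.35 CPM in place of 6.56 CPM.

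Promoter use was tested for Serping1 and C2, which had enough tags in and outside the main cluster. Neither share passed the test for more spread between libraries than in genes of like depth (limma, adjusted p = 0.993 for both). Of the 2, 0 were called, against 0.468% of the 5772 genes tested. An unadjusted p under 0.05 was found in 0 of 2, against 5.67%. F, the variance of the share over that usual at its depth, was 0.240 for Serping1 and 1.76 for C2. Over the 9 genes, the main cluster lay 100 bp or more downstream of the first coding start in 4 (Serping1, C1ra, Cfb and C2), against 24.2% of 12871 genes. It held an annotated coding start in 7 of 9 genes, against 82.9% of all; Serping1 and C1ra were the exceptions. Within 10000 bp of the 9 main clusters a single cluster without a gene name was found, at chr2:84773643-84773645 in Serping1, with 4, 2, 6 and 1 tags.

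The other complement genes set the 9 in context. Of a list of 40, 23 had tags and 19 averaged at least 1 CPM. Of these 19, 14 were highest in library 3 in CPM (35.3% of all genes tested) and 10 after TMM scaling (27%). None of them passed the limma test of spread (adjusted p under 0.05; 0.38% of all genes), and 2 had an unadjusted p under 0.05, Cfd and Clu, where 6.27% of all genes did. Cfd, which encodes factor D, the protease that cleaves factor B, had 149, 135, 259 and 190 CPM (limma, adjusted p = 0.618). It is an adipocyte gene. The other 5 adipocyte markers summed to 145, 129, 135 and 131 CPM, with library 1 highest. Fabp4, the largest part of this sum, was highest in library 1 (76.0 CPM). Adipoq, Plin1 and Cidec were highest in library 3, as Cfd was, and Lep in library 4. Clu, which encodes clusterin, a regulator of pore assembly, ran the other way from Cfd, with 117, 103, 76.0 and 88.3 CPM (limma, adjusted p = 0.669).

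The recognition protein C1q is made by macrophages in tissues. C1qa, C1qb and C1qc, its 3 chains, had 26.4 ± 1.17, 18.8 ± 2.47 and 24.8 ± 2.82 CPM (n = 4 each), all above C1s1 and C1ra on average. Of the other recognition genes, the collectin gene Colec12 had 23.2 ± 3.32 CPM and the ficolin gene Fcna 2.50 ± 0.451 CPM. Masp1, which encodes proteases of the lectin pathway, had 8.98 ± 1.82 CPM, and Cfp, for properdin, which stabilises the alternative C3-cleaving enzyme, 4.24 ± 0.439 CPM. Of 7 genes for the terminal pathway C6 alone was analysed here, at 0.762 ± 0.225 CPM.

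Among the regulators, Cr1l, the rodent relative of the receptor CR1, had 33.4 ± 3.32 CPM, Susd4 3.09 ± 0.510 CPM and Csmd1 1.52 ± 0.690 CPM. The receptors for the fragments C3a and C5a were low, with C3ar1 at 2.59 ± 0.550 and C5ar1 at 2.16 ± 0.355 CPM. The chains of the integrin receptors for C3 fragments, Itgb2, Itgam and Itgax, had 4.89 ± 1.34, 4.79 ± 1.21 and 1.62 ± 0.498 CPM; all Itgam tags lie in clusters listed under another gene too. Cd93 had 13.7 ± 3.25 CPM. C1qbp, a mostly mitochondrial protein that can bind C1q, had 135 ± 4.33 CPM.

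**Figure D5:**
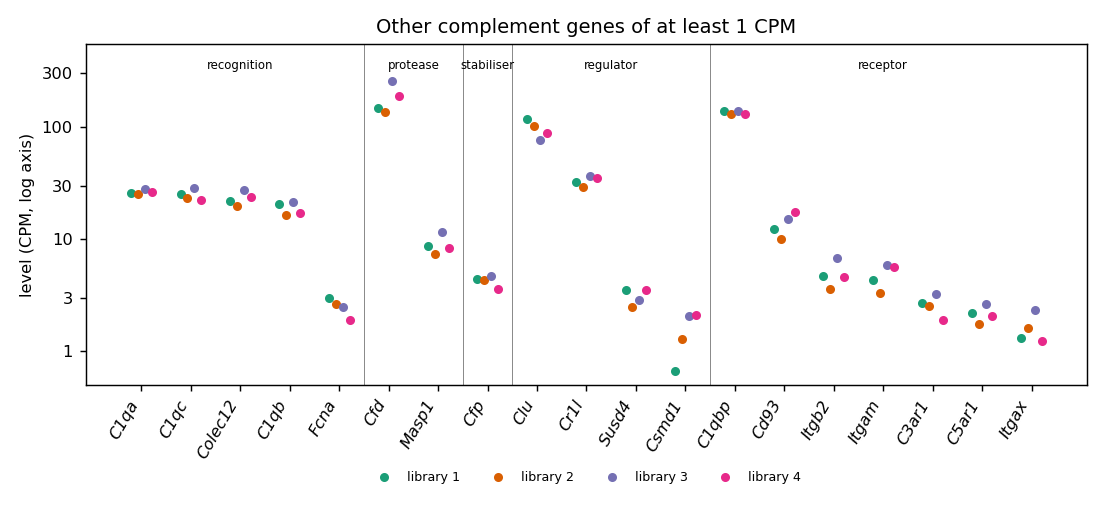
Level in CPM (log axis) of 19 other complement genes of at least 1 CPM, grouped by role, with 1 point per library. Cfd is highest in library 3 at 259 CPM, Clu is lowest there at 76.0 CPM, and the C1q genes lie between 16.4 and 28.7 CPM in all libraries.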

How the data were processed

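CAGE tags of 4 libraries were analysed. Per the labels' protocols, total RNA was column-purified (RIN over 7.0) and made into libraries with a commercial kit; BWA, HISAT2 and mm9 are named, without versions, per the submitters' processing notes. The member clusters lie at their genes on GRCm38, and its positions are used. In the sources used here the clustering step is not given. The authors' deposited values are CPM; 100% were whole multiples of 1 tag (tolerance 0.1 tags), so whole tags were recovered, from library totals of 18179860, 18823630, 17630119 and 17939565.

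Tags were summed per gene. The spread test used limma 3.58.1 on log2(CPM + 1) with TMM factors (0.988, 0.931, 1.04 and 1.04), an intercept and a robust prior trended on level, with one-sided upper F tests, adjusted by Benjamini-Hochberg over 14732 genes of at least 1 CPM; shares were tested alike on the logit, with 0.5 tags added. Ratios also had 0.5 tags added. Alternatives were edgeR 4.0.16 and DESeq2 1.42.0 on recovered tags, other scalings, filters and pseudocounts, and each library left out. Genes named are all members, their copies, list genes of at least 1 CPM, and the 3 nearest profiles to each of the 3 most variable members. Besides list genes under 1 CPM, 1 gene of the list is not reported here. Members and lists were chosen with earlier results of these data known. Intervals and detection limits (3 tags) cover counting error only.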

Additional observations from a re-analysis of the deposited data

Results flagged for a closer look

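Among 32 values examined, 1 had a library far from the others: the share of C1s1 tags in its main cluster was 99.71% in library 4 and 100% in libraries 1 to 3. The difference is 1 tag of 342, at chr6:124542227-124542229. Chance flags about 1 in 20 groups of this size where values are not tied. Libraries 1 to 3 were tied at 100%, so this rate does not apply here, and 1 tag sufficed for the flag.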

How the results depend on the processing

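None of the 9 genes was called by either test under any of the 17 alternatives run. The C2 level was 4.21 CPM from the most used cluster only, and 2.35 CPM without the cluster listed under Gm20547 too, which left a main share of 81.2% in another cluster. From the cluster that holds an annotated coding start only, an alternative chosen after seeing the data, Serping1 had 11.2 CPM and its log2 ratio to C1s1 was -0.56 in place of 1.79. The other 70 of 73 alternative levels moved by less than 1 SD. The log2 ratios near 0 changed sign with the library left out: from -0.082 to 0.14 for C4b over Cd59a, from -0.064 to 0.14 for Cd59a over Cfb, and from -0.028 to 0.16 for Cfb over Cd55. Between 2 and 4 of the 9 genes took another place in the order of levels when a library was left out, and 0 did when the most used cluster only was counted, also chosen after seeing the data. Over all genes, the 56 calls of the spread test became 104 without scaling, 34 with DESeq2 size factors, 30 with a pseudocount of 0.1, 16 above 5 CPM, 33 in edgeR, 270 in DESeq2, 111 without library 3 and 10 without library 4; the 27 calls of the share test became 12 with a minimum of 30 tags and 11 without library 2. The cause was not tested. No paired analysis was possible because there is 1 group. Depth limits C3, with 21 to 44 tags per library, and the C2 shares most.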
